A study of Mus musculus with 7 samples.

Results

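Open chromatin was described at 8 genes of the canonical Wnt pathway in intestinal stem cells: the TCF/LEF transcription factors Tcf7, Tcf7l1, Tcf7l2 and Lef1, the coactivator gene Ctnnb1, and the target genes Myc, Ccnd1 and Sp5. A region belonged to one of them when its summit lay in the gene body, or when that gene was the nearest protein-coding gene within 50 kb. This gave 126 of the 103809 regions found in the series. The genes were chosen by their place in the pathway with earlier results of the same comparison in view, namely which regions were peaks in 1 recipient type only (at Tcf7l2, Lef1 and Ccnd1), so counts over the 8 genes are descriptions and support nothing on their own. At the 50 kb limit, the farthest region inside lay 47.6 kb from Myc (7 libraries, median percentile 67.4) and the nearest outside lay 50.9 kb from Myc (1 library, median percentile 19.1).

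The cells were Lgr5+ stem cells, sorted by their Lgr5-driven GFP from the intestine of female B6-GFP-Lgr5 mice of 8 to 12 weeks. All recipients were lethally irradiated, given bone marrow and analysed 7 days later, so the controls had also been irradiated and transplanted. Syngeneic recipients (Syn, 3 libraries) were the controls, and allogeneic recipients (Allo, 4 libraries) received BALB/c marrow, a mismatch that can cause graft-versus-host disease. Each library was made from 50000 cells of a pool of 3 to 4 mice by Omni-ATAC-seq, in which a transposase cuts into accessible DNA, so n counts pools and not mice. The comparison asks how accessible chromatin of stem cells differs between the recipient types.

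Wnt ligands, bound by Frizzled receptors and their LRP coreceptors, keep beta-catenin from being degraded. Beta-catenin then enters the nucleus, joins a TCF or LEF protein on DNA and switches on target genes. Without it, TCF proteins work together with Groucho/TLE corepressors as repressors. Crypt stem cells of the intestine depend on this signal, and TCF4, the product of Tcf7l2, is the family member on which the crypt depends most. TCF/LEF proteins bind DNA by an HMG box that reads CTTTG followed by a few bases rich in A and T.

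RefSeq start windows (GRCm38.p6, the same build as mm10) were at hand for 6 of the 8 genes, not for Myc and Ccnd1, and held 12 windows of 250 bases before a start. Of these, 2 windows with a TCF/LEF match and 4 first-start windows without one are given, to compare the letters before starts of the family. In the first 2, capitals mark matches to a TCF/LEF heptamer on either strand.
Sp5, plus strand, chr2:70474673-70474922: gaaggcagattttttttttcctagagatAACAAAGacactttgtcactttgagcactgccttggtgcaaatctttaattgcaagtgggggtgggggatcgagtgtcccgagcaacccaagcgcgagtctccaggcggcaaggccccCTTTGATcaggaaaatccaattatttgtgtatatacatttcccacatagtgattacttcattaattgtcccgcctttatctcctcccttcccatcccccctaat
Tcf7l2 internal start, plus strand, chr19:55895071-55895320: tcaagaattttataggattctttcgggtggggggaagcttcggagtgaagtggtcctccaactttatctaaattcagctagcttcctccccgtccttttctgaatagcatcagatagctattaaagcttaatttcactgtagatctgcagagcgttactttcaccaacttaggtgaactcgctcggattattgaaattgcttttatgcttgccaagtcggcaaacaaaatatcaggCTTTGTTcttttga
In the next 4, which hold no such match, capitals mark the GC box GGGCGG on either strand.
Tcf7l2 first start, plus strand, chr19:55741560-55741809: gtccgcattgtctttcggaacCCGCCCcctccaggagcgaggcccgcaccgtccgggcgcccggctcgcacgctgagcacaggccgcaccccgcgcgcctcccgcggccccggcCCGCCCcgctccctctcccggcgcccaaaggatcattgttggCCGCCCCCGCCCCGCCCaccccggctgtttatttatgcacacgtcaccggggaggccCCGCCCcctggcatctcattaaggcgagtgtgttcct
Ctnnb1 first start, plus strand, chr9:120933150-120933399: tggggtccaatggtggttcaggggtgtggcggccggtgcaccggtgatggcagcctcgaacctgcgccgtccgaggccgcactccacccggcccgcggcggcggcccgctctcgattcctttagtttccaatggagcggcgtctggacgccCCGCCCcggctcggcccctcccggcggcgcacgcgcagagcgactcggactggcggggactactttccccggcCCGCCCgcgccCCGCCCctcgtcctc
Tcf7l1, minus strand, chr6:72789046-72789295: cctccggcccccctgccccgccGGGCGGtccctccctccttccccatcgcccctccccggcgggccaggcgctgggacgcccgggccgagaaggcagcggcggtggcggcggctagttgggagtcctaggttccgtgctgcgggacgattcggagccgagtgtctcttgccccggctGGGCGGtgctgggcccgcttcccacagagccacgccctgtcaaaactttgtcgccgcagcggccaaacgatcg
Lef1 first start, plus strand, chr3:131110047-131110296: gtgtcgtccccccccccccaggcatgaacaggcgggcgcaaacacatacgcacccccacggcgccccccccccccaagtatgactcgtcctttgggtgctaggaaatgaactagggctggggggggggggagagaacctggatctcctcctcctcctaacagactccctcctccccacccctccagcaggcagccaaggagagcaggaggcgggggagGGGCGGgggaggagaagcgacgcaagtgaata

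Sp5 held the TCF/LEF letters closest to the textbook site. CTTTGAT ended 98 bases before its start, and CTTTGTT lay on the opposite strand 216 to 222 bases before it. CTTTGAT and CTTTGAA were searched as planned, and Sp5 had the 1 window of 12 that held either. CTTTGTT and CTTTGTA were added after the windows had been read, and with them 3 of 12 windows had a match, at Sp5, the Tcf7l2 internal start and the fourth Lef1 start. Of all 32619 RefSeq windows of the same length, 3.23% held CTTTGAT, 4.46% CTTTGAA, 5.02% CTTTGTT, 3.2% CTTTGTA and 14.8% any of the 4, on both strands. The first Tcf7l2 window carried 6 GC boxes, 2 of which share a base, and that of Ctnnb1 carried 3, where 33.0% of all windows held at least 1. The E-box CACGTG, found in 6.06% of windows, was present only in the window of the fourth Lef1 start, among the 12. By composition, the Sp5 and internal Tcf7l2 windows had 46.0% and 40.8% G or C, and the first windows of Tcf7l2, Tcf7l1 and Ctnnb1 72.8% to 74.8%, beside a median of 52.4%. A match describes these letters and not a bound site.

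The Syn lists held 71925 to 76438 peaks and the Allo lists 62977 to 88861, and the reads behind them are unknown. Median peak width was 499 to 510 bp in Syn and 449 to 477 bp in Allo. Median fold over background, as the authors deposited it, was 4.75 to 5.11 in Syn and 4.94 to 5.67 in Allo. Allo 3 and Allo 4 had the longest lists and the highest folds, and the names of their peaks follow a different pattern from those in the other 5 lists. The notes name both MACS2 and MACS3 without saying for which list, so whether the ranks and folds of Allo 3 and Allo 4 were made like those of the other lists is unknown. No pair of lists shared more than 38 identical intervals (0.047% of the shorter list). Peaks at gene ends were found for 9 of 10 stem cell genes and 10 of 10 epithelial genes in every library. Among 20 T cell genes they were found for 3 in each Syn library and for 3, 4, 3 and 3 in Allo. Those 3 were Cd247, Bcl11b and Cd4. Of the 20 genes, 10 had a region held by all 7 libraries, among them Cd3e, Lck, Zap70, Lat, Ccr7 and Cd6, while Cd3d, Cd3g, Cd5, Cd8a and Il7r had no assigned peak and no peak at a gene end in any library. This bears on Tcf7 and Lef1, which T cells use as well.

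Strength is given as the list percentile, the rank of a peak's −log10 q within its own library's list (100 is the strongest). The lists differ in length, so percentiles describe each library. For the comparison, the 50324 regions held by all 7 libraries were ranked anew in each library, and the normal scores of these ranks were compared by limma across all 50324 regions, Allo minus Syn.

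All 8 genes were accessible at or beside a start, or at a gene end for Myc and Ccnd1 whose starts were not at hand, in both recipient types, and these sites ranked below the median gene start. Over 10392 genes with a start region in all 7 libraries, the median percentile was 90.1 (quartiles 79.0 and 95.8). The sites of the 8 genes had medians of 44.6 to 79.6.

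**Figure D1:**
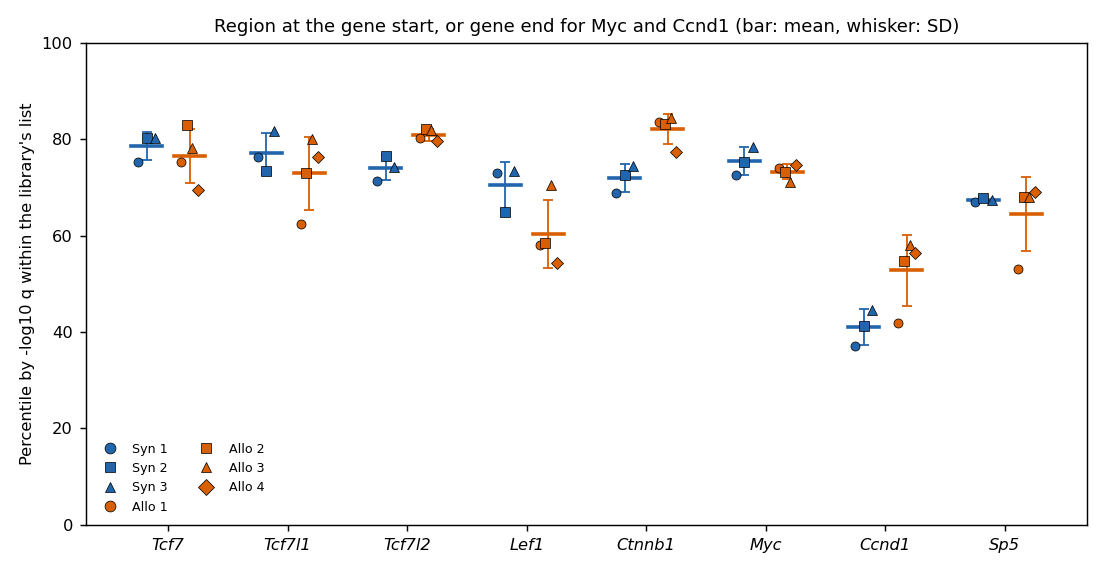
List percentile (0 to 100, 100 is the strongest peak of the library) of the region at the start of each gene, or at a gene end for Myc and Ccnd1, with 1 point per library, bars for the group mean and whiskers for the SD (Syn, n = 3; Allo, n = 4). At Tcf7l2 and Ctnnb1 every Allo point lies above every Syn point; the Syn points of Ccnd1, from 37.2 to 44.6, lie below the points of the other 7 genes.

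Among the TCF/LEF genes, Tcf7l2 was the 1 gene whose start did not overlap between the types. Its percentile was 71.4, 76.6 and 74.2 in Syn and 80.2, 82.0, 81.9 and 79.6 in Allo. Every Allo value was above every Syn value, but the difference in rank score, 0.245 (SE 0.127), missed the threshold (adjusted p = 0.351). The region beside the internal start (region 49) stood at 53.6, 48.7 and 67.5 in Syn and 45.0, 46.0, 79.8 and 59.8 in Allo, with overlap, and its peak reached the start window in Syn 2, Allo 1, Allo 3 and Allo 4. At the start of Tcf7, which encodes TCF1, the percentile was 75.3, 80.2 and 80.2 in Syn and 75.2, 82.9, 78.1 and 69.5 in Allo, with overlap. Tcf7l1 encodes TCF3, the family member best known as a repressor. Its start stood at 76.2, 73.3 and 81.6 in Syn and at 62.3, 72.9, 80.0 and 76.3 in Allo, again with overlap.

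Lef1 was the weakest of the 4 at its first start. The region there (chr3:131110230-131110544) was a peak in Syn 1, Syn 2, Allo 3 and Allo 4 alone, at percentiles of 12.5, 11.9, 15.3 and 4.1, and no library had a peak at the fourth start. A stronger region inside the gene (chr3:131111087-131112634), which reaches the window of the third start, stood at 73.0, 64.8 and 73.4 in Syn and 58.1, 58.4, 70.4 and 54.4 in Allo. Allo 3 overlapped with Syn there, and the rank score differed by -0.4 (SE 0.17, adjusted p = 0.258).

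At Ctnnb1, which encodes beta-catenin, the start region (chr9:120932305-120934634) was at percentiles of 68.9, 72.5 and 74.5 in Syn and of 83.6, 83.2, 84.3 and 77.4 in Allo. Every Allo library was above every Syn library, with means of 82.1 ± 3.17 (SD, n = 4) and 72.0 ± 2.87 (SD, n = 3). The difference in rank score was 0.378 (SE 0.146), an adjusted p of 0.219, so it did not pass.

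The target genes differed from one another. Myc encodes a transcription factor of growth and proliferation, and its gene end region (chr15:61984277-61985853) was close to even, at 72.5, 75.3 and 78.3 in Syn and 74.1, 73.2, 71.2 and 74.6 in Allo. Ccnd1 encodes cyclin D1, which drives entry into the cell cycle, and its gene end region (chr7:144939617-144940359) was at 37.2, 41.2 and 44.6 in Syn and 41.9, 54.8, 58.0 and 56.4 in Allo. Allo 1 fell within the Syn range, and the rank score differed by 0.383 (SE 0.117, adjusted p = 0.135). Sp5 encodes a transcription factor that is itself switched on by Wnt signals, and its start region (chr2:70474178-70477046) stood at 66.9, 67.7 and 67.4 in Syn and 53.0, 67.9, 68.1 and 69.1 in Allo. These are the best peaks anywhere in that wide region, and there Allo 1 alone was low. The best peaks that covered the start window itself were the same in Syn, at 66.9, 67.7 and 67.4, and stood at 52.1, 56.9, 68.1 and 69.1 in Allo, so that Allo 1 and Allo 2 were below Syn at the start.

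The summit of the best peak in the start regions spanned 18 bp over the 7 libraries at Ccnd1, 134 to 183 bp at Ctnnb1, Tcf7l2 and Tcf7, and 336 to 339 bp at Myc, Tcf7l1 and Lef1. At Sp5, whose region is 2869 bp wide, it spanned 2235 bp. At the first Tcf7l2 start the summits lay 43 to 181 bp before the start in all 7 libraries. At Ctnnb1 they lay between 84 bp before and 50 bp after the first start, in both types. In the Sp5 peaks that covered the start window, the summits of the 3 Syn libraries, Allo 2 and Allo 4 lay 356 to 431 bp before the start, and those of Allo 1 and Allo 3 lay 248 and 252 bp after it. At the Myc gene end the summit was at the same base in Syn 1 to 3, Allo 1 and Allo 2, and it was on the other side of the end in Allo 3 and Allo 4. Over the 70 regions of the 8 genes held by all libraries, the summits of 38 (54.3%) stayed within 100 bp, beside 64.5% of all shared regions.

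For each start, the gene with the most similar percentiles over the 7 libraries was taken from 52 genes of a list of other Wnt pathway genes, by the mean absolute difference in points. Jun came closest to Tcf7l2 (2.9 points), Tcf7 (3.31) and Ctnnb1 (3.5). Dvl1 was closest to Myc (3.41), Wls to Sp5 (3.85), Fzd1 to Tcf7l1 (4.22), Csnk1e to Lef1 (5.93) and Sp8 to Ccnd1 (8.38).

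Each gene also differed in how many peaks it held. Counts were divided by the length of each list and are given per 10000 peaks. Tcf7l2, a gene of 192 kb with 52 regions, 42 of them in its body, held 4.87, 4.89 and 4.71 in Syn and 5.72, 5.65, 5.4 and 6.0 in Allo. The groups did not overlap, with means of 4.82 ± 0.0968 (SD, n = 3) and 5.69 ± 0.244 (SD, n = 4), a ratio of 1.18. These values rest on 35, 36 and 36 peaks in Syn and 36, 43, 48 and 49 in Allo. By count, Allo 1, which has the shortest list, was level with Syn. Of 6738 genes with at least 5 peaks in a library, 7.03% had every Allo library above every Syn library and 6.28% the reverse.

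Lef1 and Sp5 went the other way. Lef1 held 1.25, 1.22 and 1.18 in Syn and 0.79, 0.92, 1.13 and 1.1 in Allo, a ratio of means of 0.81. These Lef1 values rest on 9, 9 and 9 peaks in Syn and 5, 7, 10 and 9 in Allo. By count the groups overlapped, and only the division by list length set them apart. Sp5 held 0.7, 0.68 and 0.78 in Syn and 0.32, 0.53, 0.34 and 0.49 in Allo, a ratio of 0.58. These Sp5 values rest on 5, 5 and 6 peaks in Syn and 2, 4, 3 and 4 in Allo. Sp5 was thus among the 6738 genes with at least 5 peaks only through its Syn libraries. Its lack of overlap is therefore not to be weighed against the 6.28% of those genes. At the other 5 genes the groups overlapped, with ratios of 0.847 for Ccnd1, 0.862 for Ctnnb1, 0.98 for Tcf7l1, 1.13 for Myc and 1.2 for Tcf7. Summed over the 8 genes, the density was 13.08 to 13.9 in Syn and 12.94 to 14.44 in Allo, so the differences of single genes did not add up to one for the group.

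**Figure D2:**
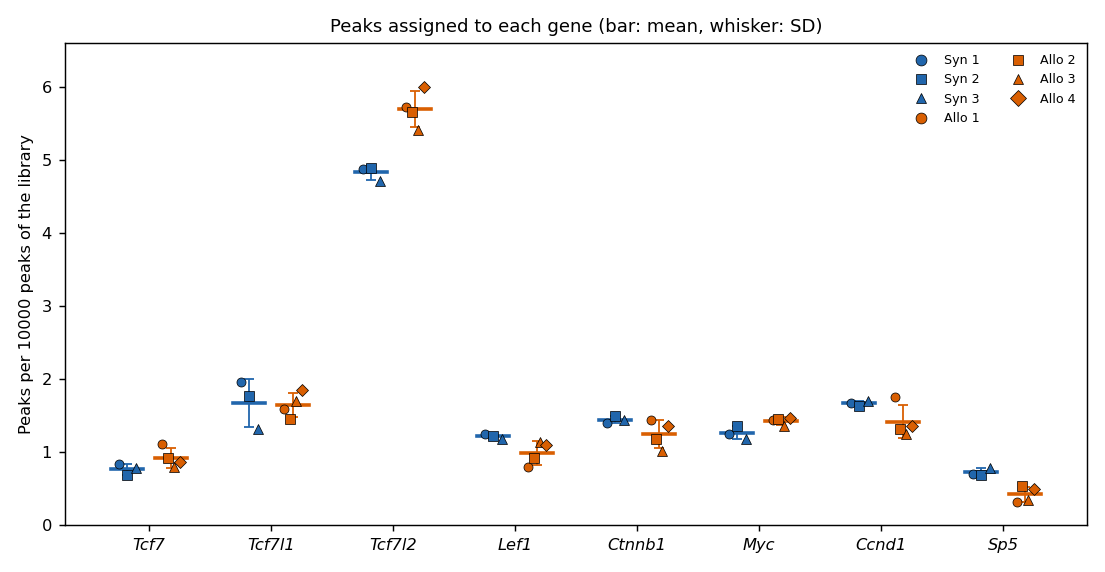
Peaks assigned to each gene per 10000 peaks of the library, with 1 point per library, bars for the group mean and whiskers for the SD (Syn, n = 3; Allo, n = 4). All 4 Allo points lie above the Syn points at Tcf7l2, and below them at Lef1 and Sp5.

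Of the 126 regions, 70 (55.6%) were held by all 7 libraries, beside 48.5% of all regions. The share was highest at Ccnd1, with 10 of 13, and Myc, with 8 of 11. Tcf7l2 had 30 of 52, Ctnnb1 7 of 11, Tcf7 4 of 7 and Tcf7l1 7 of 17. Lef1, with 3 of 11, and Sp5, with 1 of 4, had the fewest. The regions found only in Allo 3, Allo 4 or both numbered 14 (11.1%), beside 14.3% of all regions, and 7 of them were at Tcf7l2.

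Regions held by every library of one type and by none of the other were few. There were 2 held by Allo only, beside 1.14% of all regions, and 3 held by Syn only, beside 1.01%. These are the regions known when the genes were chosen, and they are described without a test. Both Allo-only regions were in the body of Tcf7l2. The first (region 17, chr19:55768838-55769388), 27.3 kb into the gene, had percentiles of 35.2, 30.8, 56.8 and 36.4 in Allo 1 to 4 and a deposited fold of 3.89 to 5.58. The second (region 39, chr19:55854103-55855018), 112.7 kb into the gene, was near the foot of each Allo list, at 3.7, 6.8, 15.3 and 1.6. So the first was a peak of middling rank in each Allo library, and the second sat close to the calling limit. Without both, Tcf7l2 regions per 10000 peaks were 4.73, 4.62 and 4.71 in Syn and 5.24, 5.26, 5.18 and 5.38 in Allo, still without overlap.

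**Figure D3:**
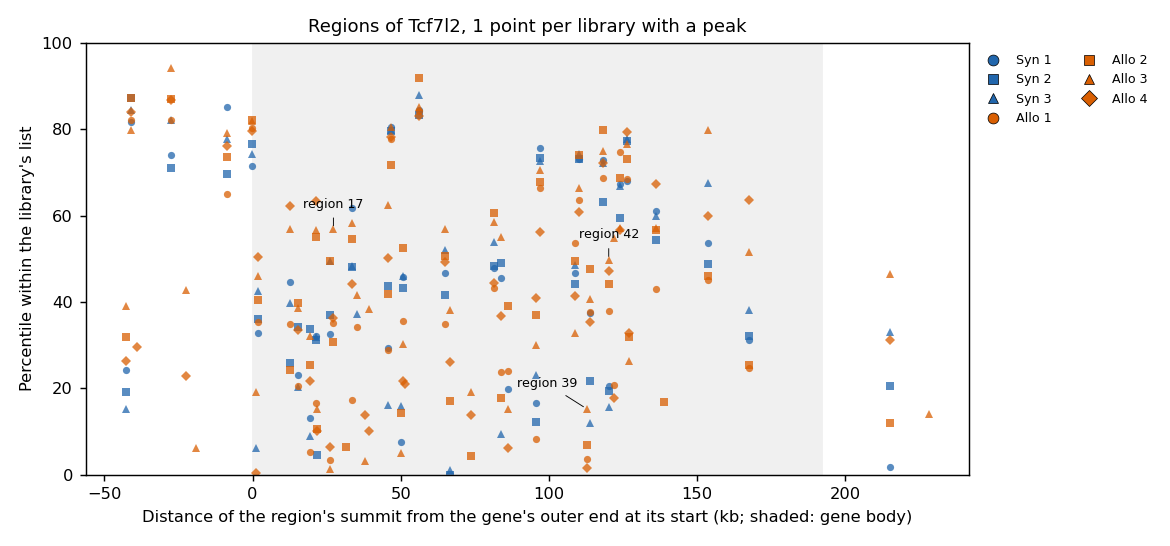
Percentile within each library's list against the distance of the region's summit from the start of Tcf7l2 in kb (gene body shaded), with 1 point per region and library that had a peak. Regions 17 and 39 have points of Allo libraries alone, and at region 42 the Allo points (37.8 to 49.7) lie above the Syn points (15.8 to 20.5).

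Of the Syn-only regions, 2 were at Lef1 and 1 at Ccnd1, and all were of low rank. At Lef1, one (region 4, chr3:131102301-131102827) lay 7.6 kb before the gene, at percentiles of 2.6, 2.5 and 28.9 in Syn 1 to 3. The other (region 11, chr3:131208015-131208408) lay 97.9 kb into the gene, at 3.4, 17.3 and 24.3. The Ccnd1 region (region 8, chr7:144965476-144966125), 25.8 kb from the gene, was at 16.4, 26.2 and 2.3. The 3 regions around Sp5 other than its start did not meet this pattern. They were peaks in every Syn library, at percentiles of 19.7 to 40.9. Allo 1 held none of them, and Allo 2, 3 and 4 held 2 each, at 8.3 to 34.2.

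**Figure D4:**
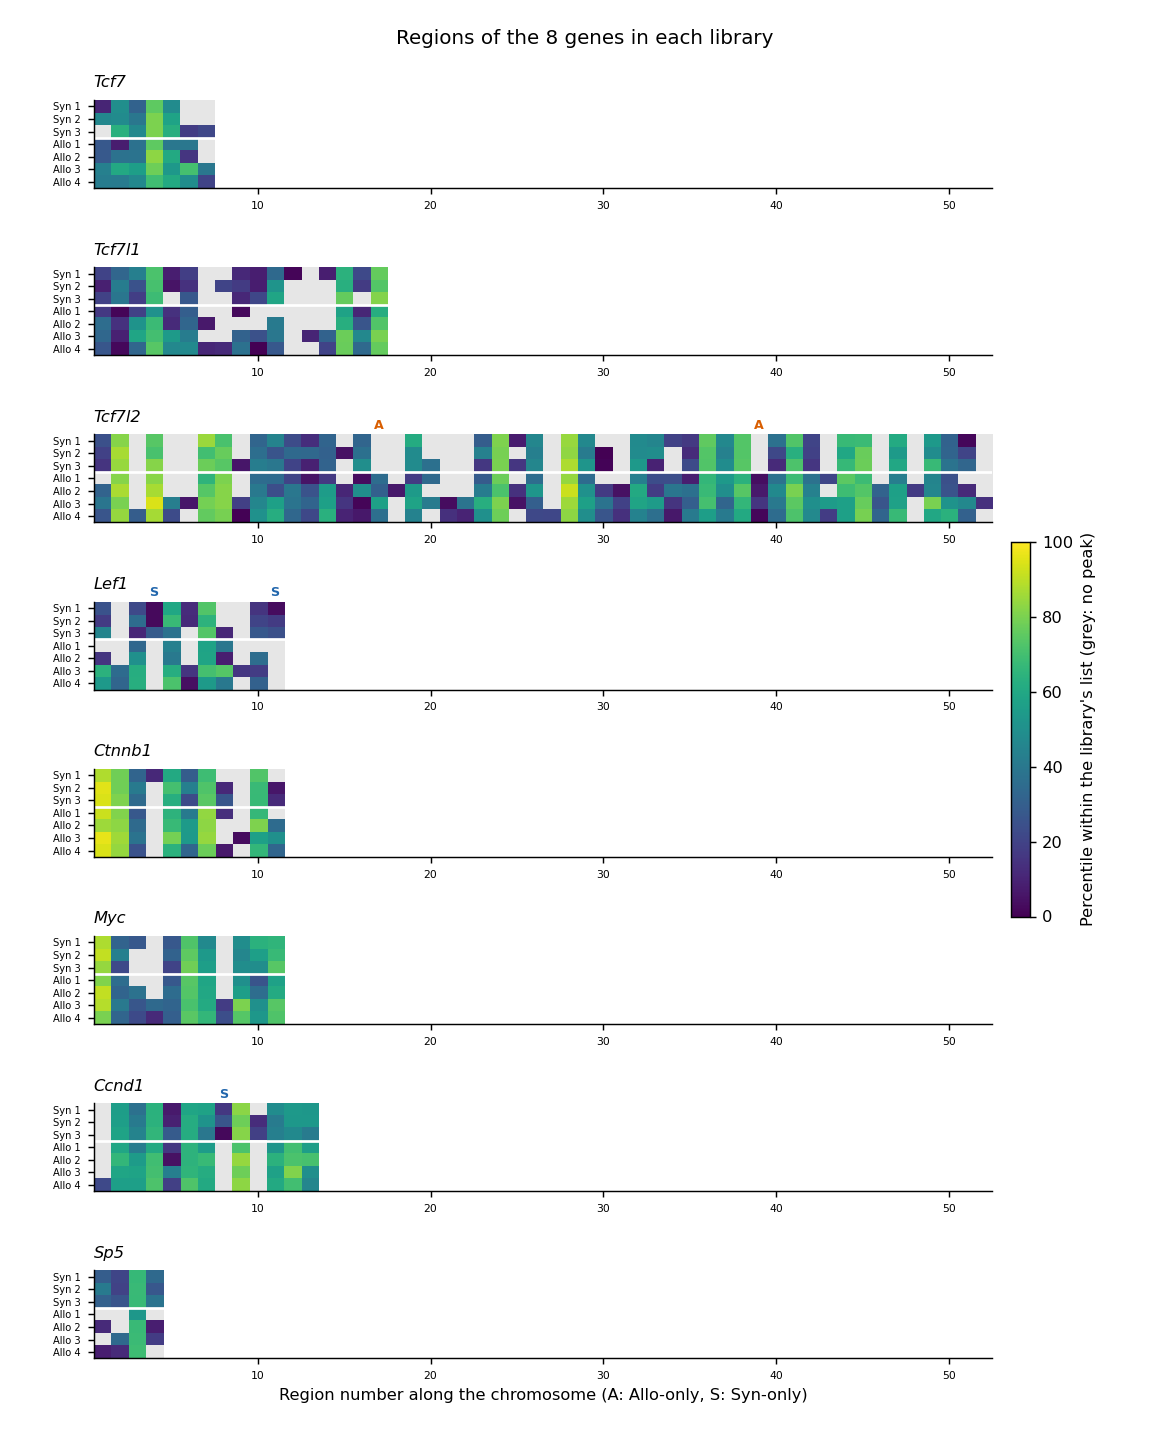
Percentile within each library's list (colour, 0 to 100; grey where the library has no peak) of all 126 regions, 1 panel per gene with regions numbered along the chromosome and 1 line per library. A marks the 2 Allo-only and S the 3 Syn-only regions; the grey cells of Sp5 are all in Allo libraries.

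Among the 70 shared regions, 2 passed the test on ranks (adjusted p under 0.05), 1 higher and 1 lower in Allo. Over all shared regions 1.53% passed, 0.95% higher and 0.576% lower. The unadjusted p was under 0.05 for 14 of the 70, a share near the 18.3% of all shared regions. The median difference in rank score was 0.05 over the 70 and 0.004 over all. Of the 70 differences 40 were positive, beside 25504 of all 50324. In list percentile, every Allo library was above every Syn library at 11 of the 70 (15.7%; all shared regions 8.06%), and below at 2 (2.86%; all 6.58%).

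The region that was higher in Allo was again in the body of Tcf7l2 (region 42, chr19:55861793-55862205), 120.2 kb into the gene. Its percentile was 20.5, 19.4 and 15.8 in Syn and 37.8, 44.1, 49.7 and 47.2 in Allo. The 4 Allo values were all above the Syn values, with means of 44.7 ± 5.14 (SD, n = 4) and 18.6 ± 2.47 (SD, n = 3). The rank score was 0.939 higher (SE 0.136, adjusted p = 0.0214). The deposited fold was 2.45 to 2.51 in Syn and 2.93 to 3.22 in Allo, and ranked by fold it did not pass (adjusted p = 0.173). The call was also lost without Syn 1, Syn 2, Syn 3, Allo 1 or Allo 4 (adjusted p = 0.0526 to 0.0905), without Allo 3 and 4 together (adjusted p = 0.0883) and with a block for the replicate number (adjusted p = 0.106).

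The region that was lower in Allo was in the body of Tcf7l1 (region 2, chr6:72628771-72629403), 160.0 kb from the start and so near the far end of the gene. Its percentile was 32.9, 41.8 and 39.4 in Syn and 1.3, 14.1, 9.0 and 2.0 in Allo. All 4 Allo libraries were below the Syn libraries, with means of 6.62 ± 6.07 (SD, n = 4) and 38.0 ± 4.63 (SD, n = 3). The rank score was -1.51 (SE 0.223, adjusted p = 0.022). The deposited fold was 3.91 to 4.32 in Syn and 2.74 to 3.24 in Allo, and the Allo peaks were low in their lists. At a −log10 q of at least 5 the region was not among those shared by all libraries and was not tested. Leaving out Syn 1, Syn 2, Syn 3 or Allo 1 ended the call (adjusted p = 0.0716 to 0.0863), as did leaving out Allo 3 and 4 together (adjusted p = 0.0863) and the block (adjusted p = 0.0884). Another Tcf7l1 region (region 6, chr6:72647363-72647848) differed the other way without passing, at 14.1 to 27.4 in Syn and 29.8 to 47.6 in Allo (adjusted p = 0.0906).

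**Figure D5:**
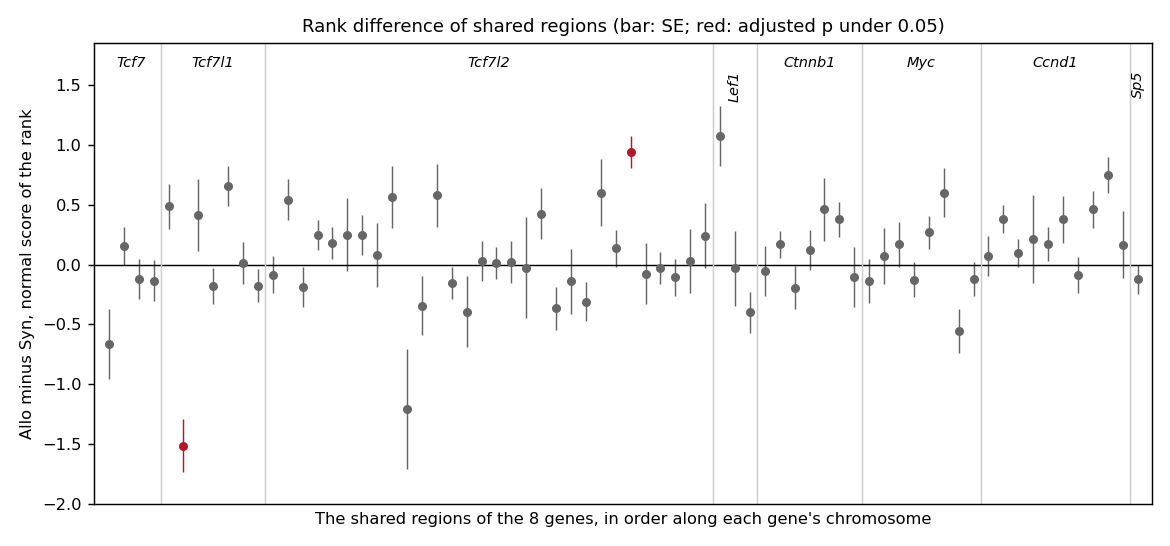
Difference in rank score (Allo minus Syn, normal scores of the rank among all shared regions) for the 70 shared regions of the 8 genes, in order along each gene's chromosome; points are the fitted differences, bars the SE, and the 2 regions with an adjusted p under 0.05 are in red. The called regions are 0.939 at Tcf7l2 and -1.51 at Tcf7l1. Of the 10 points of Ccnd1, 9 lie above 0, beside 25504 of all 50324 shared regions.

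The other TCF/LEF regions with the largest differences did not pass. At Lef1, the region 16.3 kb before the gene (region 3, chr3:131093348-131094307) was at 22.0, 35.5 and 11.1 in Syn and 33.3, 50.2, 62.2 and 62.6 in Allo. Allo 1 overlapped with Syn 2, and the rank score differed by 1.075 (SE 0.25, adjusted p = 0.076). In Tcf7l2, region 16 (chr19:55767426-55768110), 26.1 kb into the gene, was at 32.6, 37.0 and 49.5 in Syn and 3.5, 49.4, 1.3 and 6.4 in Allo. Allo 2 was level with the top of Syn while the other 3 were far below (adjusted p = 0.249 with all libraries, 0.0184 without Allo 2). At Tcf7 the largest difference was at region 2 (chr11:52257295-52257823), with means of 53.7 ± 8.28 in Syn and 36.9 ± 21.6 in Allo (SD, adjusted p = 0.273). Allo 1 was at 8.1 there, and the difference in rank score of -0.664 became -0.375 without it.

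By the median percentile over the 7 libraries, the best ranked region of Tcf7l2 was region 28 (chr19:55797615-55798421), 56.2 kb into the gene. It stood at 83.3 to 87.8 in Syn and 83.1 to 91.9 in Allo. Region 4 (chr19:55713935-55715035), 27.6 kb before the gene, had a higher mean in Allo, 87.5 beside 86.1. It was at 71.1 to 82.0 in Syn and 82.2 to 94.2 in Allo, without overlap, and did not pass (adjusted p = 0.145). Tcf7, Tcf7l1 and Lef1 had theirs at or beside the starts, with the values given above.

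The best ranked region of all 126 was assigned to Ctnnb1 (region 1, chr9:120893221-120894373). It lies 39.8 kb before the gene, at 87.9, 95.7 and 94.2 in Syn and 92.0, 85.4, 96.1 and 94.5 in Allo, with full overlap. The largest difference at Ctnnb1 was at region 6 (chr9:120920202-120920816), 13.0 kb before the gene. It had means of 31.7 ± 10.3 in Syn and 45.5 ± 10.7 in Allo (SD, adjusted p = 0.398). The difference in rank score was 0.46 there, and 0.244 without Syn 3.

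Of the target genes, Ccnd1 had the most regions that leaned one way. The difference in rank score was positive at 9 of its 10 shared regions, beside 25504 of all 50324 shared regions, and none passed. The 10 regions are neighbours around the same gene, and some differences were small (0.07 at region 2, 0.093 at region 4). The largest was 43.1 kb from the gene (region 12, chr7:144982471-144983320), at 53.9, 53.2 and 47.3 in Syn and 69.9, 71.8, 81.2 and 69.8 in Allo. The groups were 21.7 points apart and did not overlap, with a difference in rank score of 0.747 (SE 0.151, adjusted p = 0.0534). It passed only when Allo 2 was left out (adjusted p = 0.0498), among all alternatives run. The neighbouring region 11 (chr7:144976990-144977672) had a list percentile of 44.5 ± 3.65 in Syn and 58.6 ± 5.14 in Allo (SD, adjusted p = 0.173). The best ranked Ccnd1 region (region 9, chr7:144970932-144972170), 31.6 kb from the gene, was level at 80.9 ± 2.5 in Syn and 79.2 ± 5.81 in Allo (SD).

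Myc showed differences in both directions at its distal regions. Region 9 (chr15:62017098-62018050), 27.4 kb from the gene, was at 49.0, 45.9 and 48.9 in Syn and 49.7, 55.9, 80.3 and 73.5 in Allo. Allo 3 and Allo 4 were far above Syn, and Allo 1 only just (adjusted p = 0.17). Region 10 (chr15:62025333-62026334), 35.3 kb from the gene, differed the other way, at 48.9 to 63.9 in Syn and 26.1 to 53.1 in Allo, and did not pass (adjusted p = 0.168). The best ranked Myc region (region 1, chr15:61938909-61940065), 45.8 kb on the other side of the gene, was at 84.0 to 90.8 in Syn and 79.8 to 90.8 in Allo.

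Of 92 listed other genes of the pathway, from ligands to targets, 91 were matched, with 819 regions. Among these regions 8 were Allo-only (0.977%; all regions 1.14%) and 3 Syn-only (0.366%; all regions 1.01%). Of their 425 shared regions, 7 passed as higher and 3 as lower in Allo, where 0.95% and 0.576% of all shared regions did. The higher ones were at the coreceptor gene Lrp5, the coactivator gene Ep300, the kinase gene Nlk, the secreted inhibitor gene Sfrp5, and the stem cell and crypt genes Ascl2 and Ephb2, the last with 2 regions. At Ascl2, itself a Wnt target and a transcription factor of crypt stem cells, the region chr7:142959533-142960358 was at 26.4 ± 4.19 in Syn and 65.3 ± 6.87 in Allo (SD, adjusted p = 0.014). At Ep300 the region chr15:81577666-81578243 was at 24.1 ± 7.99 and 71.5 ± 7.7 (SD, adjusted p = 0.012). The lower ones were at Znrf3, which removes Frizzled receptors from the membrane, at the ligand gene Wnt9b and at the tankyrase gene Tnks2.

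Genes of T cells were set beside Tcf7 and Lef1 because both are also T cell factors. The peaks assigned to the 20 T cell genes made up 5.98, 6.24 and 5.89 per 10000 in Syn and 6.03, 6.7, 6.19 and 6.85 in Allo, with overlap. The T cell genes had 63 regions, 33 of them shared by all libraries. Of the shared ones, 1 passed the limma test as higher in Allo, at Bcl11b (adjusted p = 0.0159), where 0.95% of all shared regions did. Of the 63, 1 was Allo-only, at Cd28, beside 1.14% of all regions. For 10 leukocyte genes the density was 2.92, 2.71 and 2.49 in Syn and 2.86, 2.63, 4.16 and 3.3 in Allo, highest in Allo 3 and Allo 4. Of the regions of these leukocyte genes, 35.1% were found only in Allo 3, Allo 4 or both, beside 14.3% of all regions. Their peaks at gene ends numbered 5, 6 and 4 in Syn and 4, 4, 6 and 6 in Allo. For 10 genes of secretory cells the density was 5.56, 6.52 and 5.76 in Syn and 7.15, 6.57, 6.75 and 7.83 in Allo, without overlap. The nearest values, 6.52 and 6.57, were close. These rest on 40, 48 and 44 peaks in Syn and 45, 50, 60 and 64 in Allo, which overlap. For 10 stem cell genes it was 12.23, 12.76 and 12.3 in Syn and 12.23, 11.17, 11.7 and 10.89 in Allo, with overlap. The part of other cells in the differences at the 8 genes was not tested.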

How the data were processed

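Omni-ATAC-seq libraries of 3 Syn and 4 Allo pools were sequenced in pairs of 150 nt, per the labels' protocols. Per the submitters' processing notes, mm10, Bowtie2, Trim Galore, MACS2 and MACS3 were used. The authors deposited 1 peak list of 10 columns per library, which gives each peak's score, its fold enrichment, −log10 of p-value and of q-value, and its summit. Read handling and the calling threshold are not given in the sources used here. Depth is unknown, and the lowest −log10 q was 1.3.

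Regions were made by merging all peaks on chromosomes 1 to 19 and X that shared at least 1 bp. Genes came from RefSeq (GRCm38.p6, 21631 protein-coding genes). Of 184 list entries, 183 were found there. The best peak by −log10 q stood for a region in a library. Ranks among the regions held by all 7 libraries were turned into normal scores and compared by limma 3.58.1 in R 4.3.3 (two-sided, Benjamini-Hochberg over 50324 regions, threshold 0.05), without covariates. Presence and peaks per gene were described without a test. Named regions were each gene's start, best ranked region by median percentile, separating regions, called regions and largest difference. Some further regions with an unadjusted limma p under 0.05 were named after their values were seen. The members and lists were chosen with earlier results of these data known. The merging and the test were tested on simulated data. Python 3.11.15, numpy 2.4.6, scipy 1.17.1, pandas 2.3.3 and matplotlib 3.10.9 were used. That pools are separate samples is per the labels. Alternatives changed the threshold, list length, overlap, distance, rank measure, block, naming scheme and libraries.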

Additional observations from a re-analysis of the deposited data

Results flagged for a closer look

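Of 29 sets of 4 Allo values looked at, 3 had 1 library far from the others, where chance flags about 1 in 20. At Tcf7l2 region 16, Allo 2 was at a percentile of 49.4 and the other Allo libraries at 1.3 to 6.4. At the Ctnnb1 start region, Allo 4 was at 77.4 and the others at 83.2 to 84.3, all above the Syn values. At the Sp5 start region, Allo 1, which has the shortest list, was at 53.0 and the others at 67.9 to 69.1. This holds for the best peak anywhere in that region of 2869 bp: of the peaks that cover the start, that of Allo 2 was also low, at 56.9.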

How the results depend on the processing

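Alternatives were followed at 17 of the shared regions, those with an unadjusted limma p under 0.05 and each gene's largest difference. The direction was kept in all 250 alternative values of their rank difference. These regions were picked by their differences in the same libraries, so the kept direction was largely set by that choice and supports nothing. Only Tcf7l1 region 2 and Tcf7l2 region 42 had passed, and they no longer passed in 8 of 14 and 10 of 15 alternatives. At the other regions, 4 alternative values newly passed. The adjusted p ranged from 0.0102 to 0.0922 at Tcf7l1 region 2 and from 0.0193 to 0.173 at Tcf7l2 region 42. The 2 Allo-only regions became 1 with lists cut to the shortest (all regions 1.16%) and 1 with at least 50% of the region covered (all regions 1.11%). They became 11 without Allo 1 and 2, where the share of all regions also went from 1.14% to 6.9%. When 1 library was left out they ranged from 2 to 4. They were 4 without Syn 3 and 4 without Allo 1, where the share of all regions also rose, to 1.54% and 2.37%. The 3 Syn-only regions became 0 at a −log10 q of at least 5 and 6 without Allo 3 and 4 (all regions 1.01% in both the first and the main setting, 3.07% in the second). When 1 library was left out they ranged from 3 to 4, with 4 without Syn 1 (all regions 1.73%). The 2 called regions became 1 at a −log10 q of at least 5, 1 ranked by fold, 0 by percentile in the whole list, 0 with the naming scheme as a covariate, 0 without Allo 3 and 4 and 5 without Allo 1 and 2. Of all shared regions 1.53% passed, which became 0.903%, 1.4%, 0.26%, 0.562%, 0.0% and 4.35% in these settings, in this order. Leaving out 1 library gave 0 to 4: 0 without Syn 1, Syn 2, Syn 3 or Allo 1, 1 without Allo 4 and 4 without Allo 2. The share of all shared regions that passed was 0.179%, 0.227%, 0.0847%, 0.542%, 0.54% and 3.96% in these settings, in this order. By limma, an unadjusted p under 0.05 was reached by 14 of 70 regions under the block, 17 of 70 with the naming scheme and 10 of 70 by whole-list percentile. The set of shared regions changes with the libraries. It was 12 of 71 without Syn 1, 9 of 70 without Syn 2 and 10 of 73 without Syn 3. It was 16 of 75 without Allo 1, 13 of 71 without Allo 2, and 14 of 70 without Allo 3 or without Allo 4. Without Allo 3 and 4 it was 15 of 71, and without Allo 1 and 2 it was 21 of 78. The share of all shared regions is known for the main setting alone (18.3%), so no excess at the 8 genes can be read from these counts. With the replicate number as a block, 0 of the 8 genes' regions and 0 of all regions passed. Whether the numbers pair the samples is unknown. Correlations of same-numbered libraries were 0.0402, -0.0293 and 0.0426, and those of the other pairs were -0.0581 to 0.0306. Syn 1 and Syn 3 correlated best with their own number, and Syn 2 with Allo 4 (0.0266). These correlations cannot decide the question, since they use deviations from the means of only 3 and 4 libraries. Windows with a TCF/LEF heptamer went from 1 to 3 with the 2 added letter strings. Depth is unknown, so a region without a peak may be open below the calling limit.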
